A study of Rattus norvegicus with 7 samples.

Results

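Interferon-stimulated genes are the genes that cells switch on when interferon binds its receptors. A list of 40 such genes was followed through RNA sequencing of rat meibomian glands, the oil glands of the eyelid, after irradiation with ultraviolet B light (UVB). Members were found by gene symbol, and 38 of the 40 were read in both deposited tables, out of 17246 genes per table. Isg15 and Psmb10 were not analysed here. All 38 passed the filter on low counts and were among the 13709 genes tested. They fall into 3 classes: 28 tested genes of the type I interferon response, 5 genes of antigen processing (Psmb8, Psmb9, Tap1, Tap2 and B2m), and 5 other genes induced strongly by interferon gamma (Irf1, Irf8, Gbp2, Gbp5 and Cxcl10).

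The animals were wild-type female rats of the Sprague-Dawley strain, 3 months old. There were 4 untreated controls and 3 irradiated rats. Irradiation was given to shaved upper lids at 300.0 mJ/cm2, with 5 min of exposure a day on 5 days, and glands were then dissected from the removed lids and snap frozen. Whether the controls were shaved, and how long after the last exposure the tissue was taken, is not given in the labels. Libraries carry letters here, a to d for controls and a to c for UVB, which only name the columns and pair nothing. Each letter is treated as 1 animal, which the labels imply but do not spell out, so the p-values measure the spread between these libraries.

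As background, double-stranded RNA, cytosolic DNA and other danger signals make cells release type I interferons, which act through a receptor, the kinases JAK1 and TYK2, and a complex that includes STAT2 and IRF9. That complex binds the interferon-stimulated response element (ISRE), a DNA motif in the promoters of antiviral genes. Interferon gamma, made mainly by T cells and natural killer cells, acts through a different motif, the gamma-activated site (GAS), and induces IRF1, which in turn drives the immunoproteasome, the TAP peptide transporter and the other parts of antigen display on MHC class I. Many of the genes respond to both kinds of interferon, so the classes overlap in their control.

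The libraries held between 20680237 and 28784941 counts. Levels are given as CPM (counts scaled to library size, here with TMM normalisation). Differences are log2 fold changes, UVB over control, from edgeR's quasi-likelihood test, with a standard error (SE) and p-values adjusted over all genes tested. Summed over 8 markers of meibocytes, the lipid-producing gland cells, the level was between 94154 and 116756 CPM in controls and between 89781 and 110289 CPM in UVB libraries. Among UVB libraries, UVB c stood apart on the interferon genes: it was the highest of the 7 libraries for 12 of the 38 members (31.6%), against 12.9% of all genes tested. Over the same 7 libraries, UVB b was the lowest for 18 members (47.4%, against 18.2% of all genes) and control b the highest for 13 (34.2%, against 15.7%).

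Promoter sequences were found for 32 of the 40 members in RefSeq's table for rat assembly GRCr8, which is not the rn7 build named in the submitters' processing notes. The search covered 250 bases before the first start listed for each gene, on both strands, for the ISRE core GAAANNGAAA (TTTCNNTTTC on the other strand) and the GAS core TTCNNNGAA, which is its own reverse complement. The ISRE core was present in 19 of 32 member promoters (59.4%), against 902 of 27457 promoters in the whole table (3.29%). The GAS core was present in 7 of 32 (21.9%), against 2066 of 27457 (7.52%). The ISRE core was found in 12 of 21 type I response promoters (57.1%), 4 of 6 antigen processing promoters (66.7%) and 3 of 5 of the other gamma-induced promoters (60%). A match is a stretch of letters and not a measured binding site.

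Shown here are the promoters of the 5 members that passed the test and had an entry, because their levels are described next. Capitals mark the ISRE core in Rsad2 and B2m and the GAS core in Irf1. The Rsad2 sequence is chr6:48788121-48788370 on the minus strand and its match runs from 147 to 138 bases before the start. The Cmpk2 sequence is chr6:48802600-48802849 on the plus strand, and the B2m sequence is chr3:129549080-129549329 on the plus strand, with its match from 150 to 141 bases before the start. The Irf1 sequence is chr10:38417685-38417934 and the Trim25 sequence is chr10:74309774-74310023, both on the plus strand. Neither core was found in the windows of Cmpk2 and Trim25.
Rsad2: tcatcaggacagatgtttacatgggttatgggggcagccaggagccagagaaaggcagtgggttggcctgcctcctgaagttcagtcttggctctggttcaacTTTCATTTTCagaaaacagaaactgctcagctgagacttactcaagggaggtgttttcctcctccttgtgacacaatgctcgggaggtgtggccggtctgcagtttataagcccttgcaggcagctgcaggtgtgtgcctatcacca
Cmpk2: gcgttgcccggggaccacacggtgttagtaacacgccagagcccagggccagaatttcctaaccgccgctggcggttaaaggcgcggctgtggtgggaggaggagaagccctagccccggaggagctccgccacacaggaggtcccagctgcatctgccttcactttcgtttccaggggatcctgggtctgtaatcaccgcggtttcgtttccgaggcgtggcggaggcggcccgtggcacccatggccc
B2m: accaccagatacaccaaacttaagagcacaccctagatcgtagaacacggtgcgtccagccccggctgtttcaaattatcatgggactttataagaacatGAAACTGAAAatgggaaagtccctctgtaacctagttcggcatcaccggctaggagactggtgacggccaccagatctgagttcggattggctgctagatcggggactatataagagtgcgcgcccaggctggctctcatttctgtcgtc
Irf1: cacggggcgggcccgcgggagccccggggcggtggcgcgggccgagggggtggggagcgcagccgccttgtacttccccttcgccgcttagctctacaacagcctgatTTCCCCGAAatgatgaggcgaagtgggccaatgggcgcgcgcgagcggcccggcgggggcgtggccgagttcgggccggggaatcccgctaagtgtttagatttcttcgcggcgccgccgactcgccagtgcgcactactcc
Trim25: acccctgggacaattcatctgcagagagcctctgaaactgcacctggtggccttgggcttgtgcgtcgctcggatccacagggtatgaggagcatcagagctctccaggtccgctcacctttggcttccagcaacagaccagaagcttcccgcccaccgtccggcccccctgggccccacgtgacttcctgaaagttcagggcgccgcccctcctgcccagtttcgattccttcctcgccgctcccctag

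Irradiated glands held less RNA of a small group of interferon-stimulated genes, and 1 member rose. Of the 38 members, 6 fell: Rsad2, Cmpk2, Zbp1, Ifit2, Irf1 and B2m. That is 15.8% of the members, while 6.74% of all genes tested fell. Only Trim25 rose among the members (2.63%), while 6.30% of all genes rose. The 24 members with a log2 fold change below 0 were 63.2%, against 50.9% of all genes. The median log2 fold change over the 38 members was -0.11, against -0.0058 over all genes tested. It was -0.24 without UVB c and -0.029 without UVB b, so its size depended on which irradiated library was used. All UVB libraries lay below all controls for 10 members (26.3%, against 13.8% of all genes) and above all controls for 1 (2.63%, against 12.8%). In bulk tissue, fewer cells of a type and less RNA per cell cannot be told apart.

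**Figure D1:**
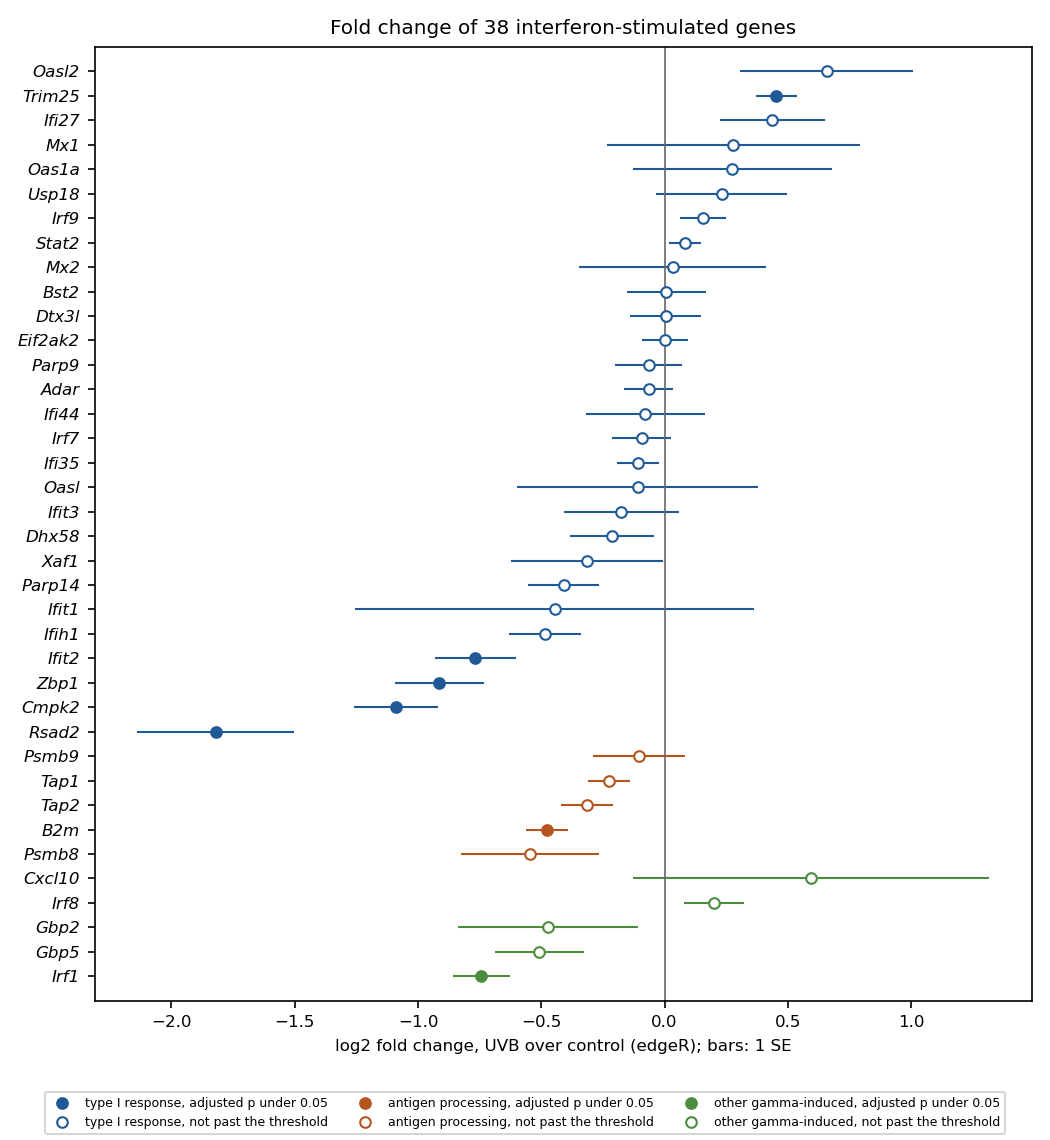
Log2 fold change of each of the 38 members, UVB (n = 3) over control (n = 4), from edgeR, with bars of 1 SE. Filled points passed the adjusted threshold of 0.05, and colours give the 3 classes: 6 filled points lie below 0 and 1, Trim25, lies above.

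Rsad2 (Entrez 65190) encodes viperin, an antiviral enzyme that makes a chain-terminating nucleotide, and had the lowest fold change of the members. Its level was 5.88, 6.21, 2.83 and 4.02 CPM in the controls, in letter order, and 1.28, 1.05 and 1.66 CPM in the UVB libraries. Every irradiated library lay below every control, although the controls themselves spread widely. The mean went from 4.73 ± 1.60 (SD, n = 4) to 1.33 ± 0.309 (SD, n = 3). This is 3.53-fold lower, or -1.82 as a log2 fold change (SE 0.32), with an adjusted p of 0.00871 in edgeR.

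Cmpk2 (Entrez 314004), the mitochondrial kinase that supplies the nucleotide viperin works on, is the next gene along the chromosome from Rsad2 in the GRCr8 annotation. The controls had 11.4, 13.5, 10.9 and 12.6 CPM and the UVB libraries 7.11, 4.37 and 5.66 CPM. The groups did not overlap. The log2 fold change was -1.09 (SE 0.17, 2.13-fold lower), with an adjusted p of 0.00637 in edgeR. The adjacent pair therefore fell together, while the adjacent pair Ifit2 and Ifit3 was split, as the next values show.

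Ifit2 (Entrez 294091), a member of the IFIT family that binds viral RNA, was at 23.4, 27.6, 21.9 and 19.2 CPM in controls and at 15.4, 10.3 and 14.9 CPM after UVB. No irradiated library reached the lowest control, and the log2 fold change was -0.77 (SE 0.16, 1.70-fold lower, adjusted p 0.0190 in edgeR). For its neighbour Ifit3, which stabilises IFIT complexes, controls ranged from 3.36 to 6.39 CPM and UVB libraries from 3.56 to 5.21 CPM, wholly within the control range. Its log2 fold change of -0.18 (SE 0.23) had an adjusted p of 0.661 in edgeR. The difference between the 2 neighbours was not tested.

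Zbp1 (Entrez 171091) encodes a sensor of Z-form nucleic acid that can start necroptosis. Its level was 5.79, 8.40, 9.14 and 7.82 CPM in controls and 4.08, 4.61 and 3.74 CPM in UVB libraries. All 3 irradiated libraries were below the lowest control, control a. The log2 fold change was -0.91 (SE 0.18, 1.88-fold lower), with an adjusted p of 0.0133 in edgeR.

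Irf1 (Entrez 24508), the transcription factor that carries much of the interferon gamma response, was at 40.05, 56.9, 53.4 and 51.0 CPM in controls. In UVB libraries it was at 28.4, 32.4 and 29.4 CPM, a narrow band under every control. The mean went from 50.3 ± 7.29 (SD, n = 4) to 30.1 ± 2.11 (SD, n = 3). This is 1.67-fold lower, or -0.74 as a log2 fold change (SE 0.12, adjusted p 0.00656 in edgeR).

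B2m (Entrez 24223), the light chain that every MHC class I molecule needs at the cell surface, was the most abundant member per length, at 507 ± 55.8 TPM in controls (SD, n = 4) and 365 ± 12.6 TPM after UVB (SD, n = 3). Its level was 461, 563, 581 and 548 CPM in controls and 392, 396 and 372 CPM in UVB libraries. The irradiated libraries agreed closely with one another and were under every control. The log2 fold change was -0.48 (SE 0.087, 1.39-fold lower, adjusted p 0.0104 in edgeR).

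Trim25 (Entrez 494338), the ubiquitin ligase that activates the RNA sensor RIG-I, went the other way. Controls had 43.2, 37.8, 38.1 and 36.2 CPM, and UVB libraries had 50.2, 58.5 and 50.6 CPM. Each irradiated library was above each control. The log2 fold change was 0.45 (SE 0.083, 1.37-fold higher), with an adjusted p of 0.0108 in edgeR. All 7 of these genes passed the threshold under each of 17 alternative analyses, with a highest adjusted p of 0.0455 (Ifit2), so the calls did not rest on 1 library.

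**Figure D2:**
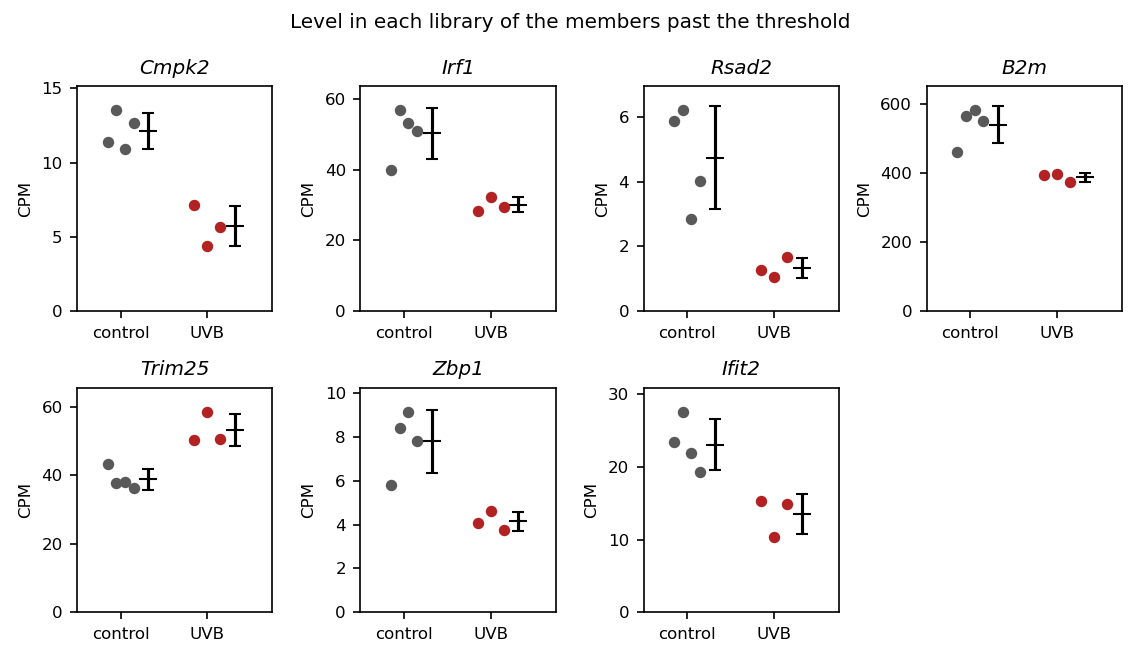
CPM in each library of the 7 members that passed the threshold, with controls (n = 4) in grey and UVB (n = 3) in red, beside the mean and SD of each group. In every panel the 2 groups of points do not overlap, and only Trim25 is higher after UVB.

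Of the 28 type I response genes, 4 fell (14.3%, against 6.74% of all genes) and 1 rose (3.57%, against 6.30%). The class median was -0.07. The median was -0.22 without UVB c, 0.014 without UVB a and 0.0085 without UVB b. The transcription factors Stat2, Irf9 and Irf7 did not pass the test. Stat2 was at 36.2 to 39.6 CPM in controls and 38.3 to 42.0 CPM after UVB (log2 fold change 0.08, SE 0.065, adjusted p 0.439 in edgeR). Irf9, the DNA-binding part of the STAT complex, was at 58.3, 52.4, 55.1 and 44.1 CPM in controls and 59.9, 60.4 and 55.1 CPM after UVB, with overlapping groups (log2 fold change 0.16, SE 0.093, adjusted p 0.293 in edgeR). Irf7, which amplifies type I interferon production, had a log2 fold change of -0.09 (SE 0.12, adjusted p 0.652 in edgeR).

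Sensors and effectors of double-stranded RNA gave mixed values. Ifih1, which encodes the RNA sensor MDA5, was at 18.3, 21.2, 15.0 and 19.4 CPM in controls and at 11.9, 11.9 and 15.8 CPM in UVB libraries. UVB a and UVB b were under every control while UVB c was above control c. Its log2 fold change of -0.48 (SE 0.15) missed the threshold with an edgeR adjusted p of 0.0585, and it passed in 3 alternatives: when UVB c was left out (-0.63, adjusted p 0.0355), when control c was left out (-0.58, adjusted p 0.0462) and in DESeq2 (adjusted p 0.0242). Dhx58, the related LGP2, had a log2 fold change of -0.21 (SE 0.17, adjusted p 0.436 in edgeR). The kinase PKR, encoded by Eif2ak2, was at 31.2 ± 2.00 CPM in controls (SD, n = 4) and 31.2 ± 3.51 CPM after UVB (SD, n = 3). Adar, which edits double-stranded RNA, had a log2 fold change of -0.07 (SE 0.10, adjusted p 0.709 in edgeR).

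Ifi27, a mitochondrial and nuclear-envelope protein used as a marker of interferon exposure, was the next most abundant member per length after B2m, at 187 ± 58.1 TPM in controls (SD, n = 4) and 255 ± 34.4 TPM after UVB (SD, n = 3). It was at 63.0, 114, 63.3 and 74.4 CPM in controls and at 121, 100.1 and 98.5 CPM after UVB. Control b overlapped the irradiated libraries and the other controls did not. The log2 fold change was 0.44 (SE 0.21, adjusted p 0.216 in edgeR), and without control b it was 0.67 with an adjusted p of 0.0113. Bst2, or tetherin, which holds budding virus at the cell surface, was at 14.8 to 19.4 CPM in controls and 14.0 to 20.8 CPM after UVB. Parp14, an ADP-ribosyltransferase, was at 18.3 to 27.8 CPM in controls and 15.2 to 18.9 CPM after UVB (log2 fold change -0.41, SE 0.14, adjusted p 0.0948 in edgeR).

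For 12 members, Ifit1, Cxcl10, Mx2, Mx1, Xaf1, Oas1a, Oasl2, Bst2, Usp18, Parp9, Dtx3l and Irf8, UVB c was the highest of the 7 libraries. Ifit1, another IFIT protein that binds foreign RNA caps, was at 1.07, 1.59, 1.28 and 1.496 CPM in controls and at 0.142, 0.194 and 2.58 CPM in UVB a to c. UVB a, at the floor of 3 counts, and UVB b, with 5 counts, were below every control, and UVB c, with 67.0 counts, was above them all. The fold change over all libraries was -0.44 (SE 0.81, adjusted p 0.758 in edgeR), and without UVB c it was -2.96 with an adjusted p of 0.00827. Ifit1 shares reads with Ifit1bl, and the summed level of the pair was 1.73, 2.61, 2.31 and 2.18 CPM in controls and 1.37, 1.39 and 3.54 CPM after UVB. In the sum UVB a and UVB b were again below every control and UVB c above, with much smaller gaps, and how much of the difference belongs to Ifit1 is uncertain.

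Mx2, an antiviral GTPase, was at 2.33, 2.52, 2.66 and 2.91 CPM in controls and 1.94, 1.32 and 4.70 CPM after UVB. For Mx1, its near relative, the values were 1.77, 4.71, 2.52 and 1.58 CPM in controls and 2.51, 1.47 and 5.59 CPM after UVB. Both were highest in UVB c and lowest in UVB b. On the log2 scale, UVB c exceeded the mean of the other UVB libraries by 3.41 for Ifit1, 2.35 for Cxcl10, 1.51 for Mx2, 1.497 for Mx1, 1.16 for Xaf1 and 1.01 for Oas1a. In the 6 members that fell, the same difference was 0.49 for Rsad2, 0.24 for Ifit2, 0.021 for Cmpk2, -0.05 for Irf1, -0.08 for B2m and -0.21 for Zbp1.

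Members of the oligoadenylate synthetase family, which make the signal that activates RNase L or lie close to those enzymes in sequence, varied widely between irradiated libraries. Oasl was at 9.53 CPM in UVB a and at 2.25 and 2.77 CPM in UVB b and c, while controls ranged from 3.97 to 6.28 CPM. Its neighbour Oasl2 was at 2.42, 1.01 and 3.20 CPM after UVB and 1.21 to 1.59 CPM in controls. Without UVB a the log2 fold change of Oasl was -1.04 (adjusted p 0.0448 in edgeR), and without UVB b that of Oasl2 was 1.01 (adjusted p 0.0402). With all libraries their values were -0.11 (adjusted p 0.909) and 0.66 (adjusted p 0.245).

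**Figure D3:**
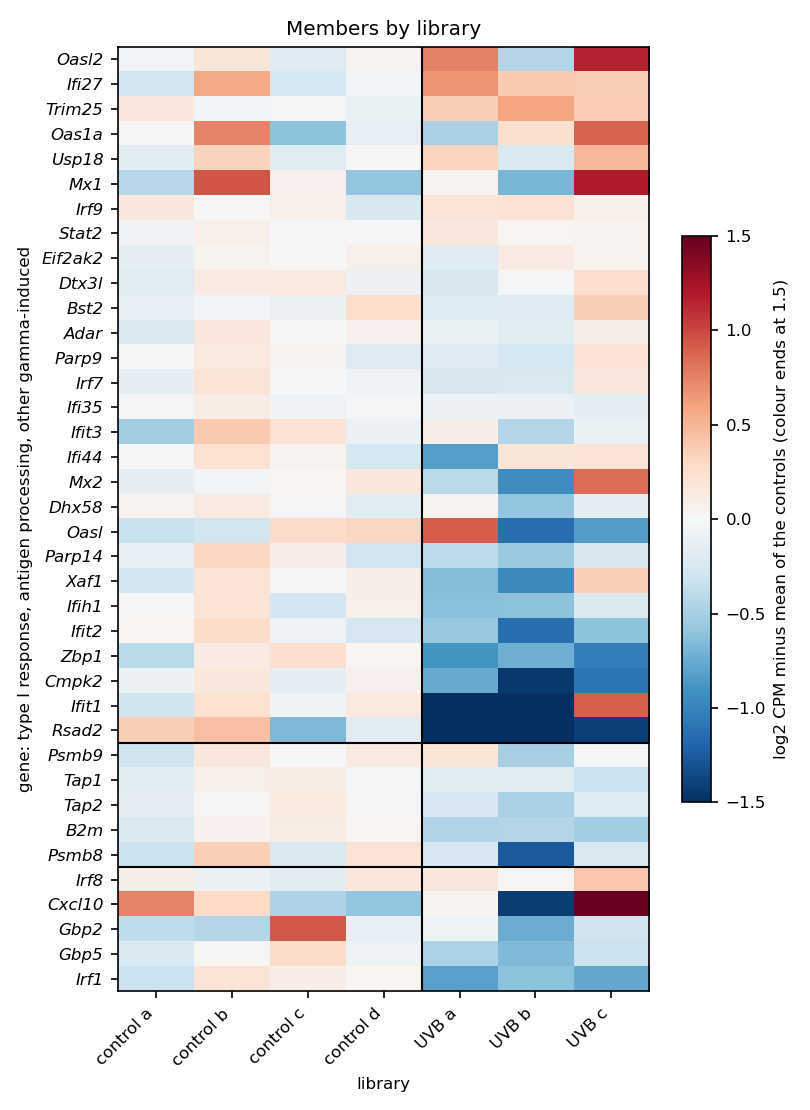
Log2 CPM of the 38 members in each of the 7 libraries, minus the mean of the 4 controls, with members ordered by class. UVB b is the lowest library for 18 members, and UVB c is the highest for 12, among them Ifit1, Mx1 and Mx2.

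Of the 5 antigen processing genes, 1 fell and 0 rose, while 6.74% of all genes tested fell and 6.30% rose. All 5 had a log2 fold change under 0, against 50.9% of all genes, and the class median was -0.31. With 5 genes, 1 call is too few to compare with these shares. B2m, given above, was the one that fell. Tap1 and Tap2 form the transporter that carries peptides into the endoplasmic reticulum. Tap2 was at 17.7, 19.98, 21.9 and 19.4 CPM in controls and 16.6, 14.1 and 17.0 CPM after UVB, without overlap (log2 fold change -0.31, SE 0.10, adjusted p 0.079 in edgeR). Tap1 was at 27.7, 32.5, 33.4 and 30.3 CPM in controls and 27.6, 27.3 and 24.6 CPM after UVB, also without overlap but with UVB a just under control a (log2 fold change -0.23, SE 0.086, adjusted p 0.114 in edgeR).

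Psmb8 and Psmb9 encode catalytic subunits that replace Psmb5 and Psmb6 in the immunoproteasome. Psmb8 was at 4.81, 7.79, 5.14 and 6.97 CPM in controls and 5.07, 2.48 and 5.16 CPM after UVB, with UVB b under every control (log2 fold change -0.55, SE 0.28, adjusted p 0.227 in edgeR). Psmb9 was at 5.93 to 8.26 CPM in controls and 5.15 to 8.34 CPM after UVB (log2 fold change -0.10, SE 0.19, adjusted p 0.754 in edgeR), and its sign turned without UVB b (0.07). The ratio of the authors' deposited TPM values, which are corrected for length, put each immune subunit far under its constitutive partner. Psmb8 over Psmb5 was 0.0231 ± 0.00739 in controls (SD, n = 4) and 0.0162 ± 0.00628 after UVB (SD, n = 3), and Psmb9 over Psmb6 was 0.0370 ± 0.00674 and 0.0345 ± 0.0111. Exact two-sided permutation tests over 35 splits gave p = 0.343 and p = 0.686 (both 0.686 after adjustment over 2 tests), where the smallest possible p is 0.0286.

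The constitutive proteasome gave no calls: of 13 subunits tested, 0 rose and 0 fell, 0 had an unadjusted p under 0.05 in edgeR, and the median was 0.016. Among 8 tested partners of class I presentation, 1 rose and 1 fell (12.5% each, against 6.30% and 6.74% of all genes). Nlrc5, the transactivator of class I genes, was at 11.5, 15.1, 13.1 and 12.9 CPM in controls and 9.29, 8.98 and 7.98 CPM after UVB, with no overlap (log2 fold change -0.59, SE 0.12, adjusted p 0.0167 in edgeR). Canx, or calnexin, a chaperone that folds new class I heavy chains among many other proteins, rose (0.31, SE 0.078, adjusted p 0.0318 in edgeR). Class II presentation gave no calls among 3 tested genes, also 0 at an unadjusted p under 0.05: Ciita, its transactivator, had a log2 fold change of 0.18 (SE 0.26, adjusted p 0.687 in edgeR).

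Of the 5 other gamma-induced genes, 1 fell, Irf1, and 0 rose, while 6.74% of all genes tested fell and 6.30% rose. The log2 fold change was below 0 for 3 of them, where 50.9% of all genes were. It was above 0 for 2, Irf8 and Cxcl10, and the class median was -0.47. Gbp2 and Gbp5 encode GTPases that attack the membranes of intracellular microbes. Gbp5 was at 3.92, 4.67, 5.59 and 4.36 CPM in controls and 3.27, 2.86 and 3.66 CPM after UVB, without overlap (log2 fold change -0.51, SE 0.18, adjusted p 0.0952 in edgeR). Gbp2 was at 15.4, 14.8, 38.5 and 18.5 CPM in controls and 19.2, 11.96 and 16.3 CPM after UVB, and control c was well above all other libraries. Its log2 fold change was -0.47 (SE 0.37, adjusted p 0.433 in edgeR), and without control c both its value and the class median were -0.04. Irf8, a factor of myeloid cells, was at 14.0 to 17.6 CPM in controls and 15.9 to 20.9 CPM after UVB (log2 fold change 0.20, SE 0.12, adjusted p 0.30 in edgeR). Cxcl10, a chemokine that draws T cells, had 8 to 21 counts in controls and 12, 4 and 50 counts in UVB a to c, too few to place it.

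The type I genes and the antigen processing genes were then set against each other within each library, as the mean log2 CPM of the 28 minus that of the 5. This contrast was -1.37, -1.41, -1.57 and -1.60 in the controls and -1.58, -1.40 and -1.15 in UVB a, b and c. The groups overlapped: UVB a sat among the lower controls, UVB b among the higher ones, and UVB c was above all. The means were -1.49 (SD 0.112, n = 4) and -1.37 (SD 0.217, n = 3), a difference of 0.12 that was smaller than the spread of the UVB libraries. It was 0.0013 without UVB c, 0.22 without UVB a, and 0.0030 with the median over members in place of the mean.

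Relative to the control mean, UVB c had a type I mean of 0.08, an antigen processing mean of -0.26 and a mean of 0.14 for the other gamma-induced genes. The 0.14 in UVB c rested on Cxcl10 (1.66), which had too few counts to place, and on Irf8 (0.41). Irf1 (-0.76), Gbp2 (-0.30) and Gbp5 (-0.32) were under the control mean there. The same 3 class means were -0.27, -0.18 and -0.23 in UVB a, and -0.48, -0.57 and -0.69 in UVB b. All 3 were thus under the control mean in those 2 libraries. Control a had an antigen processing mean of -0.23, lower than that of UVB a, so the class mean did not separate the groups. In UVB c, 11 of the 28 type I genes were above every control and 6 below every control, while 0 of the 5 antigen processing genes were above and 3 were below. Over all genes tested, 27.3% were above and 30.4% below every control in that library. In UVB b, 18 of 28 and 5 of 5 were below every control, where 31.7% of all genes were.

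**Figure D4:**
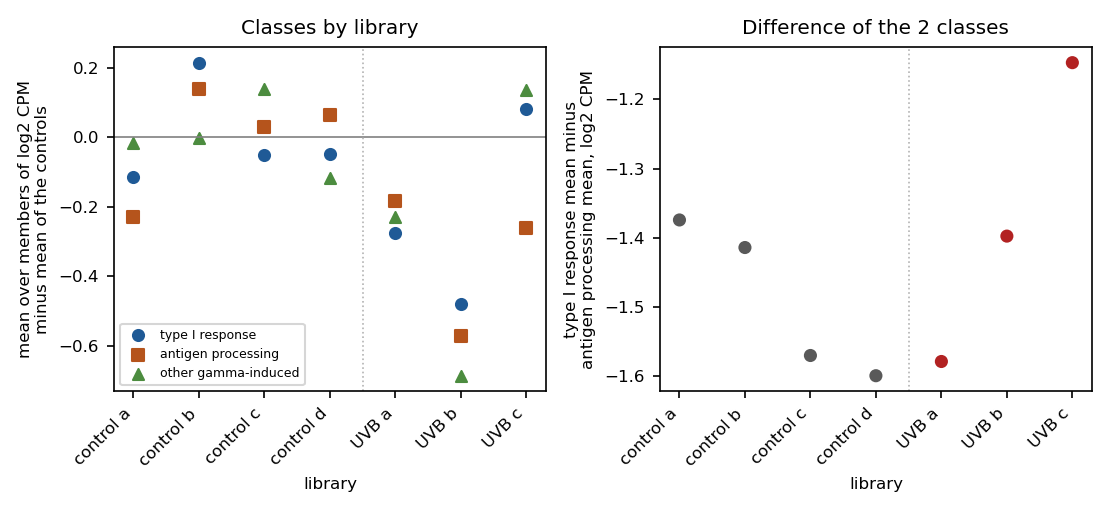
Mean log2 CPM of the 3 classes in each library, relative to the control mean, and the type I response mean minus the antigen processing mean. UVB a and UVB b lie under 0 in all 3 classes. UVB c lies at 0.08 for type I genes, -0.26 for antigen processing genes and 0.14 for the other gamma-induced genes.

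Upstream genes of the pathway were called at shares close to or under the 6.30% that rose and the 6.74% that fell over all genes tested. Of 11 interferon ligands listed, 0 passed the filter on low counts, and Ifnb1, the gene of interferon beta, had 2 to 10 counts in controls and 2 to 5 counts in UVB libraries. Ifng was not analysed here. Of 15 tested receptors and signalling genes, 1 rose and 0 fell, with a median of -0.02, and nothing is read from these counts. The 1 was Tyk2, the kinase on the type I receptor, at 35.5, 36.1, 38.3 and 36.5 CPM in controls and 44.7, 48.1 and 45.4 CPM after UVB (log2 fold change 0.33, SE 0.061, adjusted p 0.0107 in edgeR). For the receptor chains, Ifnar1 gave -0.07 (adjusted p 0.482) and Ifngr1 0.12 (adjusted p 0.490).

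Of 14 tested genes of nucleic acid sensing, 1 rose and 0 fell, with a median of 0.07. It was Myd88, the adaptor of most Toll-like receptors, at 37.2 to 38.6 CPM in controls and 46.5 to 51.5 CPM after UVB (log2 fold change 0.36, SE 0.061, adjusted p 0.00797 in edgeR). The RIG-I gene, listed as Ddx58, had a log2 fold change of -0.05 (adjusted p 0.842), and Sting1, the adaptor of cytosolic DNA sensing, 0.11 (adjusted p 0.816).

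A further list held 34 tested interferon-stimulated genes outside the 40, with a median of -0.16. Of these, 6 fell (17.6%, against 6.74% of all genes) and 3 rose (8.82%, against 6.30%). Cd274, which encodes the T cell inhibitor PD-L1, was at 28.9, 24.1, 26.1 and 30.9 CPM in controls and 13.4, 17.5 and 13.8 CPM after UVB. The groups were well apart (log2 fold change -0.88, SE 0.12, adjusted p 0.00431 in edgeR). Herc6, the main ISG15 ligase in rodents, was at 5.46 to 9.15 CPM in controls and 2.61 to 4.20 CPM after UVB (adjusted p 0.0115 in edgeR). Ifitm2 and Ifitm1, membrane proteins that hinder virus entry, rose (log2 fold changes 0.35 and 0.64, adjusted p 0.0133 in edgeR and 0.0142).

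Markers of immune cells moved beside these genes, and their part in the results was not tested. Of 10 macrophage markers, 5 rose (against 6.30% of all genes) and 0 fell (against 6.74%). Their summed level was 91.3 to 158 CPM in controls and 219, 144 and 249 CPM in UVB a to c. UVB c had the highest macrophage sum, and it also had the highest sum of 4 pan-leukocyte markers (65.1 CPM, against 30.9 to 60.7 CPM in controls) and of 7 T cell markers (8.71 CPM, against 4.95 to 6.50 CPM). UVB b, the lowest library for 18 members, had the lowest macrophage sum of the UVB libraries. Its pan-leukocyte sum was also the lowest of them (38.6 CPM, against 53.4 CPM in UVB a). Its sum of 7 neutrophil markers was the highest, at 372 CPM. UVB a and c had 294 and 310 CPM, and controls 251 to 275 CPM. The neutrophil list includes S100a8 and S100a9, and how much of the sum comes from neutrophils is not known. Of 6 tested markers of dendritic and Langerhans cells, 2 fell (33.3%, against 6.74% of all genes) and 0 rose (against 6.30%). The list was mixed: 3 markers had a log2 fold change below 0 and 3 above, with a median of -0.09. At an unadjusted p under 0.05 in edgeR, 2 were lower and 1 was higher. Cd207, or langerin, was one of the 2 (log2 fold change -1.24, SE 0.25, adjusted p 0.0167 in edgeR). The summed level of the 7 in the tables was 288 to 340 CPM in controls and 245 to 263 CPM after UVB. These 7 include Epcam, and their sum was above that of the 4 pan-leukocyte markers in every library. How much of the sum comes from dendritic and Langerhans cells is not known.

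Plasmacytoid dendritic cells and natural killer cells are strong sources of type I and gamma interferon. Of 4 tested markers of the first, 0 passed in edgeR and 1 had an unadjusted p under 0.05. Their 6 markers in the tables summed to 53.1 to 62.1 CPM in controls and 48.6 to 57.4 CPM after UVB. Siglech, a defining one, had at most 3 counts in every library, and how much of the sum comes from plasmacytoid dendritic cells is not known. The 5 natural killer cell markers in the tables summed to 0.513 to 0.887 CPM in controls and 0.332 to 0.771 CPM after UVB. Over all genes tested, 6.30% rose and 6.74% fell. The marker lists that follow are short, and their counts are not read as shifts of cell types. Of 4 tested melanocyte markers, 2 fell, and of 8 meibocyte markers, 2 fell. Of 5 tested markers each, 3 of fibroblasts, 2 of endothelium and 1 of basal and spinous epithelium rose. Of 4 tested neutrophil markers, 2 rose, and of 6 tested T cell markers, 2 rose. Of 6 skeletal muscle markers, 1 fell, and the 1 B cell marker and 4 pan-leukocyte markers tested gave 0 calls, also at an unadjusted p under 0.05.

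Some members share reads with a neighbour or relative, because their deposited counts were not whole while the sum with a partner was whole within 0.01 counts in every library. The pairs were Ifit1 with Ifit1bl, Mx1 with Mx2, Psmb9 with Tap1, Dtx3l with Parp9, Irf9 with Rnf31 and Ifi35 with Vat1. For Psmb9 with Tap1 the summed level was 33.7 to 40.7 CPM in controls and 36.0, 32.4 and 31.8 CPM after UVB, so the groups overlapped in the sum although they did not for Tap1. The split within these pairs is uncertain, and 0 of the 7 members that passed the test are in one. Oas1a is in none of these pairs, but its counts were not whole in any of the 7 libraries, so its level is uncertain too.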

How the data were processed

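Bulk RNA sequencing of meibomian glands gave 4 control and 3 UVB libraries. One table the authors deposited holds expected counts per gene, estimated from the reads and not normalised, in which 12.5% of values were not whole. They also deposited TPM values, which the authors normalised for transcript length and library size. The submitters' processing notes name FastQC, Trimmomatic, DRAGEN, Picard and rn7. Their roles and versions, the gene annotation and the use of strand are not given in the sources used here. Gene names with commas had moved the cells of 2281 of 17251 rows, so values were taken from the last 7 cells of a row, and 5 rows without 7 values were left out. Columns name a group but no replicate number.

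Rounded counts entered the quasi-likelihood test of edgeR 4.0.16 under R 4.3.3, with robust settings, TMM factors and filterByExpr, which kept 13709 genes. P-values are two-sided, with Benjamini-Hochberg adjustment over all of them and a threshold of 0.05. An SE is the size of the log2 fold change over the root of its F value. CPM come from rounded counts with TMM factors, and log2 CPM use a prior count of 2. On simulated data for this comparison with 13709 genes, edgeR recovered 93.0% of the genes changed 2-fold, and 5.58% of its calls were false. The simulation gave every gene the same dispersion and no other size of change. These rates therefore need not hold for the measured genes or for smaller changes. Results were recomputed with DESeq2 1.42.0, with voom from limma 3.58.1, with other scalings and filters, log2 TPM with pseudocounts of 1 and 0.1, and leaving out each library.

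The members, the other gene lists and the cell type markers were chosen with earlier results of these data known. All members could be named. From the other lists, up to 4 genes past the threshold were named by smallest p, with Ifnb1, Ifnar1, Ifngr1, the RIG-I gene, Sting1, Nlrc5, Ciita and the constitutive partners of the immunoproteasome, and Cd207 and Siglech were chosen after their values were seen. Of the genes this rule names, 1 is not reported here.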

Additional observations from a re-analysis of the deposited data

Results flagged for a closer look

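Of 41 values examined for a control library standing apart from the other 3, 2 stood apart by Dixon's criterion, where chance gives about 1 in 20. Gbp2 was at 38.5 CPM in control c while controls a, b and d had 14.8 to 18.5 CPM, so the gap made up 0.847 of the group's range. Ifi35 was at 17.5 CPM in control b while controls a, c and d had 15.6 to 15.8 CPM, so the gap made up 0.860 of the range. Ifi35 shares reads with Vat1, so its level is uncertain.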

How the results depend on the processing

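No paired analysis was possible because column names give only a group, and the replicate block could not be fitted. All 7 members past the threshold kept their call and direction under each of 17 alternatives. The number of members that rose was 1 to 2 when 1 library was left out, with 2 without control b (Ifi27 added) and without UVB b (Oasl2 added). The number of all genes past the threshold was 1787 and ran from 851 (without control c) to 1898 with 1 library left out, with 1097, 943, 1047 and 1168 when control b, control d, UVB b or UVB c was left out. The median of the other gamma-induced genes ran from -0.60 to -0.042 with 1 library left out.

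Of 639 values of members under alternatives, 32 turned sign, in 12 members, none of them past the threshold. With 1 library left out, the log2 fold change ran from -2.96 to 0.053 for Ifit1, -0.42 to 0.70 for Mx1, -0.69 to 0.37 for Mx2, -0.14 to 0.60 for Oas1a, -1.04 to 0.24 for Oasl, -0.21 to 0.11 for Bst2, -0.24 to 0.18 for Ifi44, -0.23 to 0.031 for Parp9, -0.13 to 0.11 for Dtx3l, -0.75 to 1.11 for Cxcl10, -0.26 to 0.074 for Psmb9 and -0.061 to 0.089 for Eif2ak2. Mx2 was also at -0.17 in limma-voom, -0.069 with log2(TPM + 1), filtered or not, and -0.16 with log2(TPM + 0.1), and Bst2 at -0.010 with log2(TPM + 1), filtered or not, and -0.011 with log2(TPM + 0.1). With a mean count of at least 50, Dtx3l was at -0.0011 and Eif2ak2 at -0.0037. The causes were not tested. Depth limits Cxcl10 and Ifit1, which had few counts in some libraries.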

Other observations

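The other genes of the further list that passed the threshold, named after their values were seen, were 4 that fell and 1 that rose. Oas3, which makes the signal for RNase L from long double-stranded RNA, was at 3.17, 5.09, 4.00 and 4.19 CPM in controls and 1.56, 1.51 and 2.50 CPM after UVB, with no overlap (log2 fold change -1.14, SE 0.25, edgeR adjusted p 0.0195). Trim34 (-0.82, adjusted p 0.0323), the GTPase gene Irgm (-0.60, adjusted p 0.0231) and Nmi, a partner of the member Ifi35 (-0.55, adjusted p 0.0334), also fell. Ifitm3, the third IFITM gene of the list, was at 95.7 to 107 CPM in controls and 133, 130.3 and 115 CPM after UVB (log2 fold change 0.33, SE 0.071, edgeR adjusted p 0.0188). All 3 IFITM genes tested therefore rose, with every UVB library above every control.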
